A study of Mus musculus with 8 samples.

Results

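Cytidine deaminases of the APOBEC family and the RNA-binding cofactors of Apobec1 were examined in beta cells that had lost the adenosine deaminase Adar. The group was set by name as 5 genes, Apobec1, Apobec2, Apobec3, A1cf and Rbm47, and all 5 were found among the 44343 genes of the deposited table. RNA was measured in 8 libraries, 4 from Adar knockout beta cells (KO; MipCreER, Adar floxed/floxed, R26R-EYFP) and 4 from heterozygous beta cells (Het; the same transgenes with Adar floxed/+). MipCreER is a Cre recombinase under an insulin promoter that tamoxifen activates. R26R-EYFP is a reporter that makes cells yellow fluorescent once Cre has acted. Both groups therefore carried the Cre, the reporter and at least 1 floxed Adar allele, both received 2 tamoxifen doses of 8 mg at 1 month of age, and in both the YFP-positive islet cells were collected by sorting 7 days after it. The number of mice behind a library is not in the labels, so p-values reflect only the spread from library to library, which may be technical.

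APOBEC proteins turn cytidine into uridine, whereas Adar turns adenosine into inosine. Apobec1 edits messenger RNA, best known from the apolipoprotein B transcript of the intestine, and needs an RNA-binding partner, A1cf or Rbm47, to reach its site. Apobec3 deaminates single-stranded DNA of retroviruses and belongs to the antiviral defence of the mouse, while Apobec2 is a muscle protein for which deaminase activity is not established.

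The beta-cell label held in the data: Ins2, the major insulin gene, had 125891 to 835219 normalized counts in the KO libraries and 389199 to 799944 in the Het libraries. Adar itself had 4030, 2365, 615 and 1343 normalized counts in KO 1 to KO 4 and 943, 1173, 1187 and 744 in Het 1 to Het 4, with no call between the groups (log2 fold change 0.75 ± 0.58, limma adjusted p = 0.910). A count over the whole gene includes exons outside the floxed part, so these values do not check the deletion, and the genotypes are given as labelled. The libraries held 5.37 to 15.9 M reads. Under the deposited scaling the general level differed between them: over the 6697 genes that averaged 200 or more, the median log2 level relative to the average library was 0.88 and 0.96 in KO 1 and KO 2, −0.77 and −0.56 in KO 3 and KO 4, and −0.46 to 0.22 in the Het libraries. By Xist and the Y-linked gene Ddx3y, Het 1 held reads of males, KO 3 and KO 4 of females, and the other 5 libraries of both sexes. Levels in KO 1 and KO 2 therefore differ from those in KO 3 and KO 4 for most genes, and this touches each result that compares counts between libraries. The part of sex or of the general level in the results was not tested beyond the settings given below, which leave out KO 3, KO 4 and Het 1 or change the scaling. In bulk libraries, fewer cells of a type and less RNA per cell cannot be told apart.

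The start regions of the deaminases that were well detected are shown because Apobec3 is a gene of antiviral defence, many of which carry an interferon response element near their start. Each window runs from 250 bases before to 50 bases after the annotated start (RefSeq, GRCm38.p6), 5′ to 3′ on the strand of the gene. Capitals mark TTTC, any 2 bases and TTTC again or, on the other strand, GAAA, any 2 bases and GAAA again, the core of that element.
Apobec3 (chr15:79892158-79892457, plus strand): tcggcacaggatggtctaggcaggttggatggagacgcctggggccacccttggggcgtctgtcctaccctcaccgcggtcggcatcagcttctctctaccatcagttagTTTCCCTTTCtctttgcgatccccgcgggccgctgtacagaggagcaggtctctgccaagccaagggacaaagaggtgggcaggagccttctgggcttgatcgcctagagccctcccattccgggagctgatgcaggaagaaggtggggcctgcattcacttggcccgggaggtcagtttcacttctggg
Apobec1 (chr6:122602395-122602694, minus strand): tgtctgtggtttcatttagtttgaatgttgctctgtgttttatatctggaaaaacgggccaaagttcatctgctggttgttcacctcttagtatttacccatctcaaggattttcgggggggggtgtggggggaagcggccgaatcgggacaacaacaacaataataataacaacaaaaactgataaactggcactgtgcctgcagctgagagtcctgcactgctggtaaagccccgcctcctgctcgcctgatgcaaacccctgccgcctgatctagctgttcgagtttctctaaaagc

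The 5 genes had 8 such windows in the RefSeq table. Only the first of the 2 Apobec3 windows held the motif, at 140 bases before the RefSeq start of that window. The GENCODE span of Apobec3 given below begins earlier, at 79891659. By that span the motif, at 79892268 to 79892277, lies inside the gene. Of all 32817 windows of this length, 3.43% held it. A match is a description of the letters and not a measured binding site.

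Per length, Apobec1 was the most abundant of the 5 transcripts in both groups. Divided by the summed exon length of each gene, Apobec1 had 449 ± 211 normalized counts per kb in KO and 268 ± 38.6 in Het (SD, n = 4 each). Rbm47 followed with 156 ± 107 in KO and 139 ± 32.7 in Het. Apobec3 had 36.4 ± 19.6 in KO and 27.6 ± 5.20 in Het, and A1cf 21.1 ± 10.3 in KO and 21.3 ± 5.14 in Het. Apobec2 was the lowest at 8.59 ± 3.37 in KO and 8.03 ± 2.25 in Het. Apobec1 exceeded Rbm47, Rbm47 exceeded Apobec3, and A1cf exceeded Apobec2 in 8 of 8 libraries, while Apobec3 exceeded A1cf in 7 of 8. In KO the SDs of each pair of neighbours in this order overlapped, and in Het only those of Apobec3 and A1cf. A1cf exceeded Apobec3 in Het 4 (23.2 against 19.8). The summed exons of a gene (9.45 kb for Apobec3) can be longer than 1 transcript, which lowers its level per kb. Both well-known cofactors of Apobec1 were thus detected beside it, Rbm47 at the higher level.

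None of the 5 genes passed the test between genotypes. The background is that 0.921% of 21498 tested genes were called higher and 0.0233% lower in KO (limma on log2(value + 1), Benjamini-Hochberg adjusted p under 0.05). At an unadjusted p under 0.05, where 4.05% of genes were higher and 2.7% lower, 0 of the 5 passed. With whole reads, edgeR called 0 of the 5, beside 0.673% of genes higher and 0.0343% lower, and 0 had an unadjusted p under 0.05 (4.75% and 1.91% of genes). DESeq2 gave no adjusted p for Apobec2 and called 0 of the other 4, beside 1.25% higher and 0.0178% lower, and 0 of the 5 had an unadjusted p under 0.05 (8.4% and 0.589%). The median log2 fold change of the 5 was 0.04, beside 0.05 over all tested genes, and the groups of each member overlapped under the deposited scaling, where 2.19% of genes had all KO values above and 0.893% below all Het values. TMM scaling (trimmed mean of M values, computed from the whole reads), which moved the median of all genes to −0.16, also called 0 of the 5 (0.637% of genes higher, 0.0372% lower), and their median was then −0.17.

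Apobec1 (ENSMUSG00000040613, protein-coding, mm10 chromosome 6, 122577792 to 122602444, minus strand) had 1755, 1654, 764 and 676 normalized counts in KO 1 to KO 4. In Het 1 to Het 4 it had 702, 726, 858 and 605. KO 1 and KO 2 lay far above every Het library, while KO 3 and KO 4 lay within the Het range. These counts came from 548 to 1958 reads per library. Its log2 fold change was 0.62 ± 0.56 (SE, 95% interval −0.47 to 1.72, limma adjusted p = 0.920). The exact permutation test over the 70 arrangements of the 8 libraries, two-sided, gave p = 0.229 and could not have gone below 0.0286.

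With TMM scaling the Apobec1 values were 1283, 1105, 997 and 850 in KO and 806, 756, 831 and 771 in Het. All 4 KO libraries then lay above all 4 Het libraries, as they did for 3.69% of tested genes. The log2 fold change was 0.41 ± 0.25 (SE, 95% interval −0.11 to 0.92, limma adjusted p = 0.669), and the exact permutation test reached its smallest possible value (p = 0.0286, unadjusted). With TMM factors taken from genes with a mean of at least 200, a setting known from earlier results to narrow the spread between libraries, the fold change was 0.38 ± 0.14 (95% interval 0.07 to 0.69, unadjusted p = 0.020, limma adjusted p = 0.097), where 6.03% of genes were called higher and 4.24% lower. There the 4 KO values again lay above the 4 Het values, as for 11.7% of 6697 genes. In the 5 libraries of both sexes Apobec1 was called higher, with a log2 fold change of 1.24 (limma adjusted p = 0.0024), where 42.3% of 20162 genes were called higher, and of 0.60 with TMM scaling (limma adjusted p = 0.013), where 13.5% were. The setting of both sexes leaves out KO 3 and KO 4, so these calls rest on KO 1 and KO 2.

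**Figure D1:**
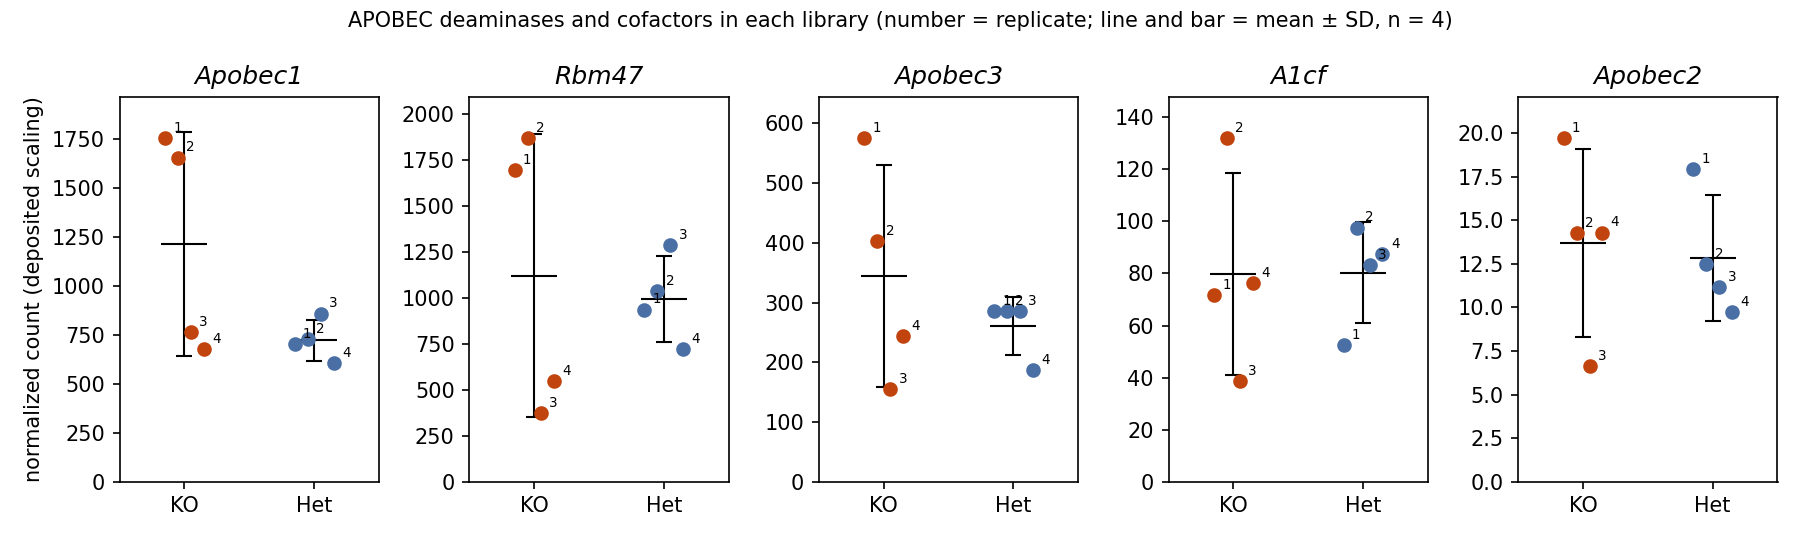
Normalized counts of the 5 genes in each library under the deposited scaling, KO left and Het right, with the replicate number beside each point and the mean ± SD (n = 4). For Apobec1, Rbm47 and Apobec3, KO 1 and KO 2 sit above every Het library, and KO 3 is below every Het library for each gene except Apobec1.

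Rbm47 (ENSMUSG00000070780, chromosome 5, 66016549 to 66173118, minus strand) encodes an RNA-binding protein that can serve as the partner of Apobec1. It had 1693, 1870, 373 and 547 normalized counts in KO 1 to KO 4, against 936, 1038, 1287 and 723 in Het 1 to Het 4. The KO libraries lay on both sides of the Het range, 2 above it and 2 below it. The log2 fold change was −0.12 ± 0.56 (SE, 95% interval −1.22 to 0.98, limma adjusted p = 0.988) and −0.34 ± 0.31 with TMM scaling (limma adjusted p = 0.736).

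With TMM factors from genes with a mean of at least 200, Rbm47 stood at 943, 983, 653 and 828 in KO and 1136, 1059, 1124 and 1017 in Het. All KO values were then below all Het values, as for 10.3% of the 6697 genes. The log2 fold change in that setting was −0.36 ± 0.14 (95% interval −0.67 to −0.06, unadjusted p = 0.024, limma adjusted p = 0.107). In the annotation 3.85% of its exon bases are shared with Gm43323 on the same strand and 1.56% with Gm26725 on the other. Its level is therefore uncertain by an amount that these shares of bases do not give. Its sign under the deposited scaling turned positive without KO 3 (0.30), without KO 4 (0.12) or without Het 3 (0.013). In the 5 libraries of both sexes Rbm47 was called higher, with a log2 fold change of 0.85 (limma adjusted p = 0.033). There 42.3% of 20162 genes were called higher. TMM factors gave 0.21 in these libraries, which was not called (limma adjusted p = 0.397).

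A1cf (ENSMUSG00000052595, chromosome 19, 31868764 to 31948995, plus strand), the other partner of Apobec1, had 71.7, 132, 38.6 and 76.2 normalized counts in KO 1 to KO 4. Het 1 to Het 4 had 52.5, 97.5, 83.1 and 87.5. The groups overlapped, with KO 2 highest and KO 3 lowest of the 8. The log2 fold change was −0.10 ± 0.41 (SE, 95% interval −0.90 to 0.70, limma adjusted p = 0.987). With 35 to 128 reads per library, A1cf was measured less precisely than Apobec1 or Rbm47. Unlike these, it was not high in KO 1: relative to its own mean it was at −0.07 there on the log2 scale, where the median gene was at 0.88.

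Apobec3 (ENSMUSG00000009585, chromosome 15, 79891659 to 79915906, plus strand), which restricts retroviruses, had 575, 403, 156 and 244 normalized counts in KO 1 to KO 4. The Het libraries had 286, 285, 285 and 187. Het 1, Het 2 and Het 3 were nearly equal, while the KO libraries spread around them. The log2 fold change was 0.25 ± 0.49 (SE, 95% interval −0.70 to 1.21, limma adjusted p = 0.967) and 0.03 ± 0.24 with TMM scaling (95% interval −0.46 to 0.53, limma adjusted p = 0.962). In the 5 libraries of both sexes it was called higher, with a log2 fold change of 0.95 (limma adjusted p = 0.011). There 42.3% of 20162 genes were called higher. TMM factors gave 0.32 in these libraries, which was not called (limma adjusted p = 0.207). Without KO 1 the deposited scaling gave −0.050. Over all 8 libraries a difference of Apobec3 between genotypes was not detectable. In the annotation 7.15% of its exon bases are shared with D730005E14Rik on the same strand and 1.06% with Cbx7 on the other. Since the counting mode is not stated, its level is uncertain by an amount that these shares of bases do not give.

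Apobec2 (ENSMUSG00000040694, chromosome 17, 48419231 to 48432930, minus strand), best known from muscle, was close to the detection limit with 6 to 24 reads per library. It had 19.7, 14.2, 6.62 and 14.3 normalized counts in KO 1 to KO 4 and 17.9, 12.5, 11.1 and 9.72 in Het 1 to Het 4. The groups overlapped, and the log2 fold change of 0.04 ± 0.48 (SE, 95% interval −0.91 to 0.98, limma adjusted p = 0.997) leaves a difference of about that interval undetectable at this depth.

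**Figure D2:**
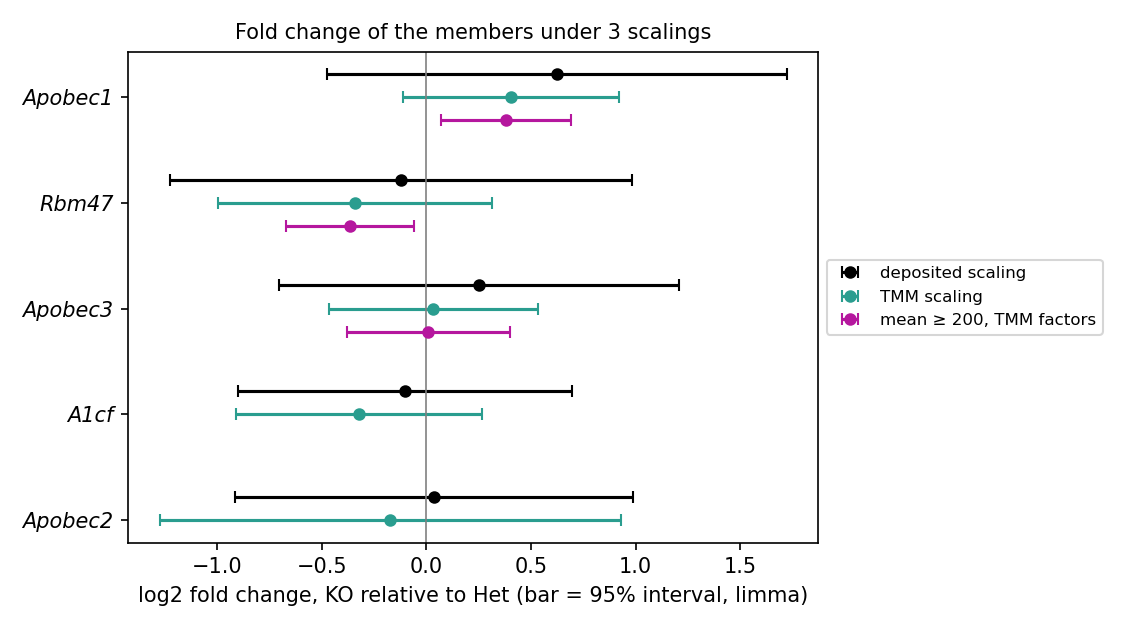
Log2 fold change of each gene, KO relative to Het, with its 95% interval from limma under the deposited scaling, TMM scaling and, for the 3 genes with a mean of at least 200, TMM factors from such genes. The intervals include 0 in each case except Apobec1 (0.07 to 0.69) and Rbm47 (−0.67 to −0.06) in the last setting.

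Under the deposited scaling Apobec1 and Rbm47 lay near the general level of the library in KO 1 and KO 2. In KO 1 and KO 2 Apobec1 stood 0.98 and 0.89 above its own mean on the log2 scale and Rbm47 0.86 and 1.00 above its own, beside 0.88 and 0.96 for the median gene. In KO 3 and KO 4 the 2 genes parted. Rbm47 was at −1.32 and −0.77 there, lower than the median gene at −0.77 and −0.56, while Apobec1 was at −0.22 and −0.40, higher than the median gene.

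**Figure D3:**
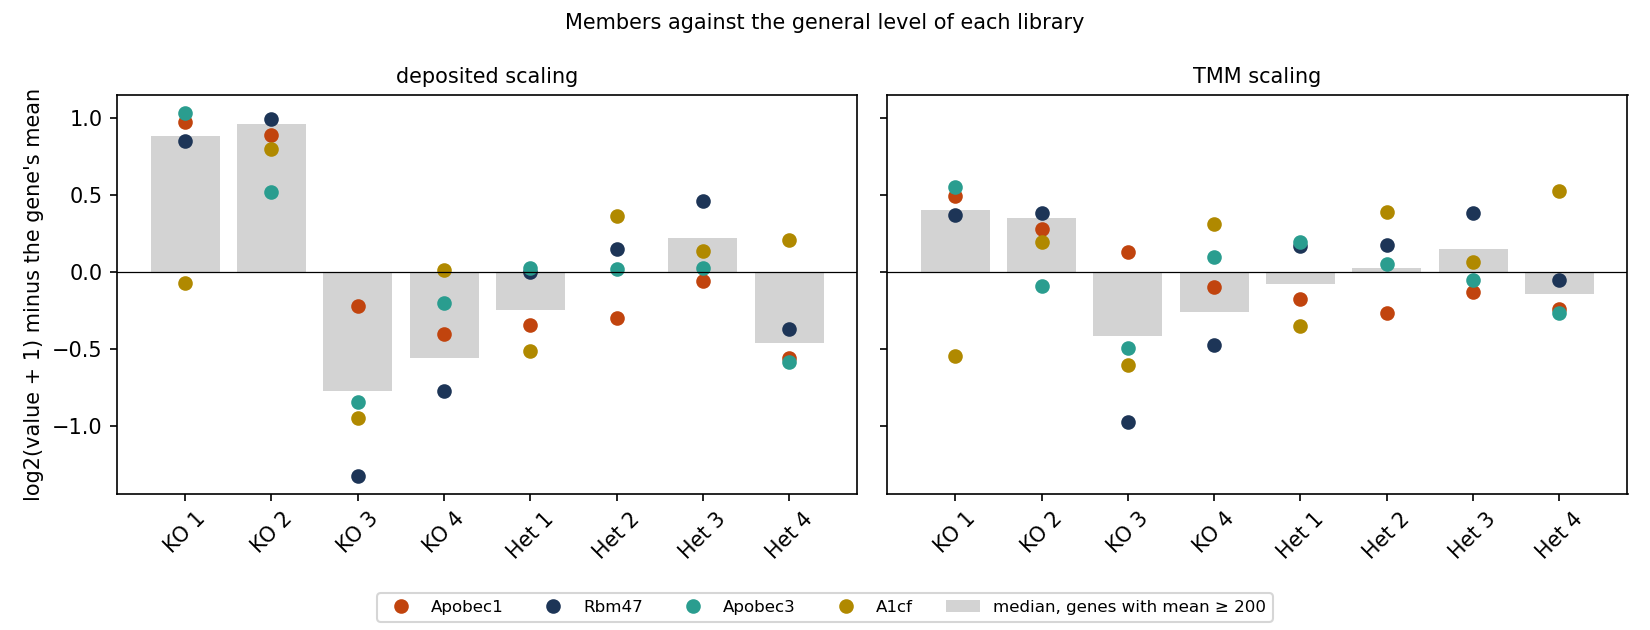
Log2(value + 1) of Apobec1, Rbm47, Apobec3 and A1cf minus the mean of each gene, by library, with grey bars for the median over the genes averaging 200 or more, under the deposited scaling (left) and TMM scaling (right). In KO 3 under the deposited scaling Apobec1 is at −0.22, above the bar at −0.77, and Rbm47 at −1.32, below it.

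Ratios of 2 genes within a library were taken of the normalized count + 1, as in the fit, so that the size factor enters only through the added 1. Of the 10 pairs of members the ratio of Apobec1 to Rbm47 was the 1 whose groups did not overlap. It was 1.04, 0.884, 2.05 and 1.23 in KO 1 to KO 4 and 0.750, 0.700, 0.667 and 0.838 in Het 1 to Het 4. Each KO library thus had more Apobec1 per Rbm47 than any Het library, KO 3 the most and KO 2 only slightly more than Het 4. The log2 ratio averaged 0.30 ± 0.53 in KO and −0.44 ± 0.14 in Het (SD, n = 4 each), a difference of 0.75, which corresponds to 1.68-fold. The two-sided exact permutation test gave its smallest possible value, p = 0.0286, and p = 0.286 after Benjamini-Hochberg adjustment over the 10 pairs.

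The same separation was common among other genes. The ratio to Rbm47 separated in the same direction for 13.8% of 21497 genes, and for 33.7% of the 6696 that averaged 200 or more. Ratios to Apobec1 were lower in all KO libraries for 15.9% of 21497 genes and for 29.4% of the 6696. Without KO 3, the library with the highest ratio, the difference was 0.50, and it was 0.70 to 0.91 without any 1 of the others.

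Apobec1 was also higher relative to A1cf on average, but the groups overlapped. Its ratio to A1cf, also of counts + 1, was 24.2, 12.4, 19.3 and 8.77 in KO 1 to KO 4 and 13.1, 7.38, 10.2 and 6.85 in Het 1 to Het 4. The log2 difference was 0.73 (exact permutation p = 0.143, adjusted p = 0.400). The ratio of the cofactors, A1cf to Rbm47, differed by 0.02 on the log2 scale (exact permutation p = 1.00, adjusted p = 1.00), with SDs of 0.74 in KO and 0.50 in Het. Ratios of Apobec1 to Apobec3 and of Apobec3 to Rbm47 differed by 0.37 each (exact permutation p = 0.143 and 0.200, adjusted p = 0.400 for both).

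**Figure D4:**
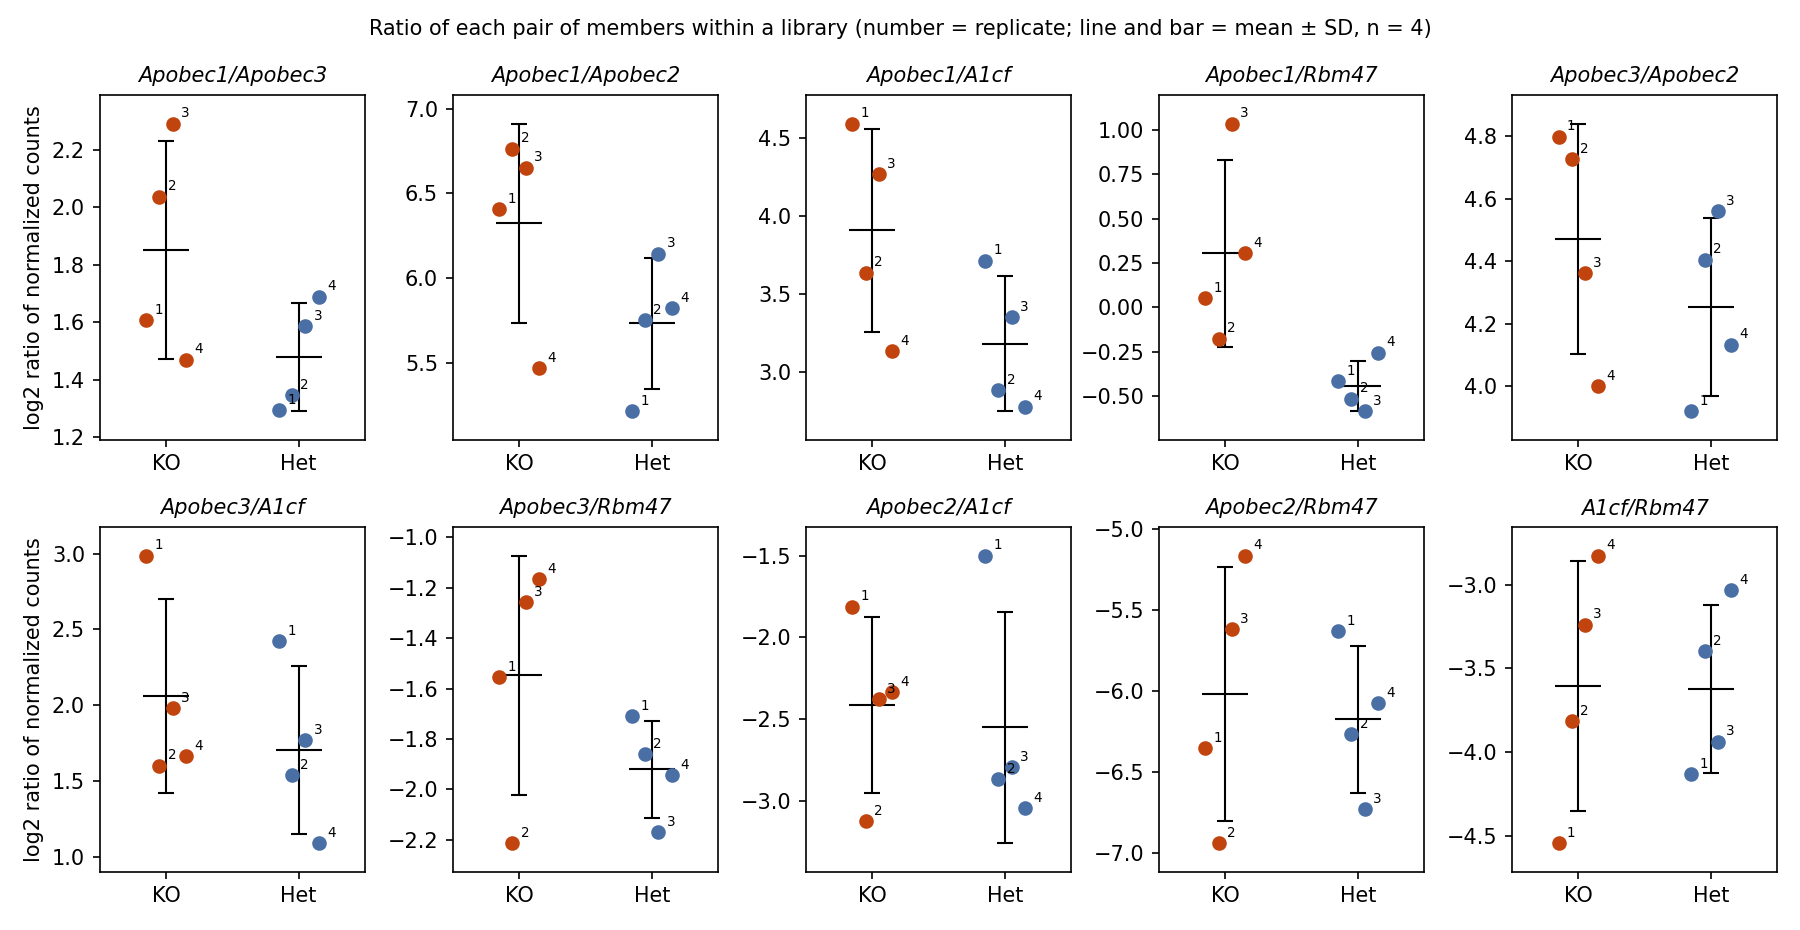
Log2 ratio of normalized counts + 1 for each of the 10 pairs, KO left and Het right, with the replicate number beside each point and the mean ± SD (n = 4). Only in the panel of Apobec1 over Rbm47 do the groups not overlap, with the lowest KO library at −0.18 and the highest Het library at −0.26.

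Macrophages and lymphocytes were looked for through their markers. The summed level of 6 macrophage markers was 145 to 364 normalized counts in KO and 304 to 446 in Het, which overlap. As a share of all reads of a library the same sum did not overlap. It was 0.00127% to 0.00300% in KO and 0.00361% to 0.00575% in Het. No marker was at 0 in any library, and of 4 tested markers 1, the complement gene C1qa, was called lower in KO. C1qa had 71.7, 208, 40.8 and 26.8 in KO 1 to KO 4 and 246, 265, 232 and 164 in Het 1 to Het 4. Under the deposited scaling KO 2 was inside the Het range, and the log2 fold change was −1.79 ± 0.43 (SE, limma adjusted p = 0.0051). Over all tested genes 0.0233% were called lower. The groups overlapped for the other macrophage markers too under the deposited scaling. Adgre1 had 5.38, 7.77, 35.3 and 22.6 in KO 1 to KO 4 and 13.7 to 25.0 in Het. Csf1r had 62.9 to 98.4 in KO and 70.5 to 124 in Het, and C1qb 2.69 to 4.41 in KO and 2.57 to 6.48 in Het. The summed level of 4 T-cell markers was 24.6 to 67.3 in KO and 46.3 to 79.4 in Het, and that of 3 B-cell markers 37.5 to 83.8 in KO and 54.9 to 81.0 in Het, with 0 called in either list. The read shares of the T-cell and B-cell markers overlapped between the groups. KO 1 and KO 2, which held the most Apobec1 under the deposited scaling, had summed macrophage markers of 181 and 364. Those sums were 0.00127% and 0.00217% of the reads in KO 1 and KO 2. The part of these cells in the levels of Apobec1 and Apobec3 was not tested.

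Of 4 other deaminases none was called, beside 0.921% of all tested genes higher and 0.0233% lower. Apobec4, Cda and Dctd of pyrimidine nucleotide metabolism and the less studied Cdadc1 passed the filter on low values, and 0 of these had an adjusted p under 0.05. The median log2 fold change of these 4 was −0.07 (range −0.43 to 0.19), beside 0.05 over all genes. Dctd had the most negative value (−0.43 ± 0.46, limma adjusted p = 0.945), Cda was at −0.19 ± 0.40 (adjusted p = 0.968), and Cdadc1, the most abundant, at 472 ± 285 normalized counts in KO and 362 ± 87.1 in Het (SD, n = 4 each).

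Other proteins reported to act with Apobec1 in editing also gave 0 calls among 7, all tested, beside 0.921% of genes higher and 0.0233% lower. The median log2 fold change of the 7 was 0.27 (range −0.16 to 0.85), beside 0.05 over all genes. All 7 averaged 200 or more. With TMM factors from such genes their median was 0.02, beside −0.002 over the 6697 genes of that level. Hnrnpc, a nuclear RNA-binding protein with the highest mean of the 7 over the 8 libraries, had 3725, 3335, 1219 and 1204 normalized counts in KO 1 to KO 4, against 899, 1229, 1650 and 956 in Het 1 to Het 4. KO 1 and KO 2 were again high and KO 3 and KO 4 within the Het range. In Het alone Dnajb11 had the highest mean of the 7. The log2 fold change of Hnrnpc was 0.85 ± 0.59 (limma adjusted p = 0.892). It was called higher with TMM factors from genes with a mean of at least 200 (0.60 ± 0.13, limma adjusted p = 0.022), where 6.03% of 6697 genes were. Celf2, which binds AU-rich RNA, was at 0.45 ± 0.49 (limma adjusted p = 0.948).

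Among transcripts that Apobec1 is known to edit in mouse or rat, the level of 1 differed between genotypes. Of Apob, App, B2m, Cd36, Tmbim6 and Serinc1, 5 of 6 passed the filter, and B2m, the light chain of MHC class I, was called higher. Over all 21498 tested genes 0.921% were called higher. B2m had 7023, 2226, 1349 and 1443 normalized counts in KO 1 to KO 4, against 179, 221, 305 and 285 in Het 1 to Het 4, a log2 fold change of 3.27 ± 0.55 (limma adjusted p = 1.15e-06). All 4 KO libraries lay above all 4 Het libraries, as for 2.19% of tested genes. Gene counts do not measure editing. Serinc1, the most abundant of the list, was at 0.33 ± 0.63 (adjusted p = 0.967). Apob itself, the classical target, had 134, 82.8, 67.3 and 83.9 normalized counts in KO and 184, 108, 90.9 and 89.9 in Het, with overlapping groups and a log2 fold change of −0.34 ± 0.42 (limma adjusted p = 0.952). The median of the 5 tested transcripts was 0.64, beside 0.05 over all genes.

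Genes around the removal of uracil from DNA, the product of cytidine deamination there, gave 0 calls among 6, all tested. The shares called over all tested genes were 0.921% higher and 0.0233% lower. The median log2 fold change of the 6 was 0.28 (range 0.14 to 0.55), beside 0.05 over all genes. Apex1, which cuts at the emptied site, was at 0.55 ± 0.42 (limma adjusted p = 0.907), and the glycosylase Mbd4 at 0.48 ± 0.40 (adjusted p = 0.914). Tdg, a glycosylase and the most abundant of the 6, had 328 ± 190 normalized counts in KO and 244 ± 65.9 in Het (SD, n = 4 each). With TMM scaling the medians of these lists were −0.27 for the deaminases, 0.05 for the accessory proteins, 0.42 for the edited transcripts and 0.06 for uracil removal, beside −0.16 over all genes.

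**Figure D5:**
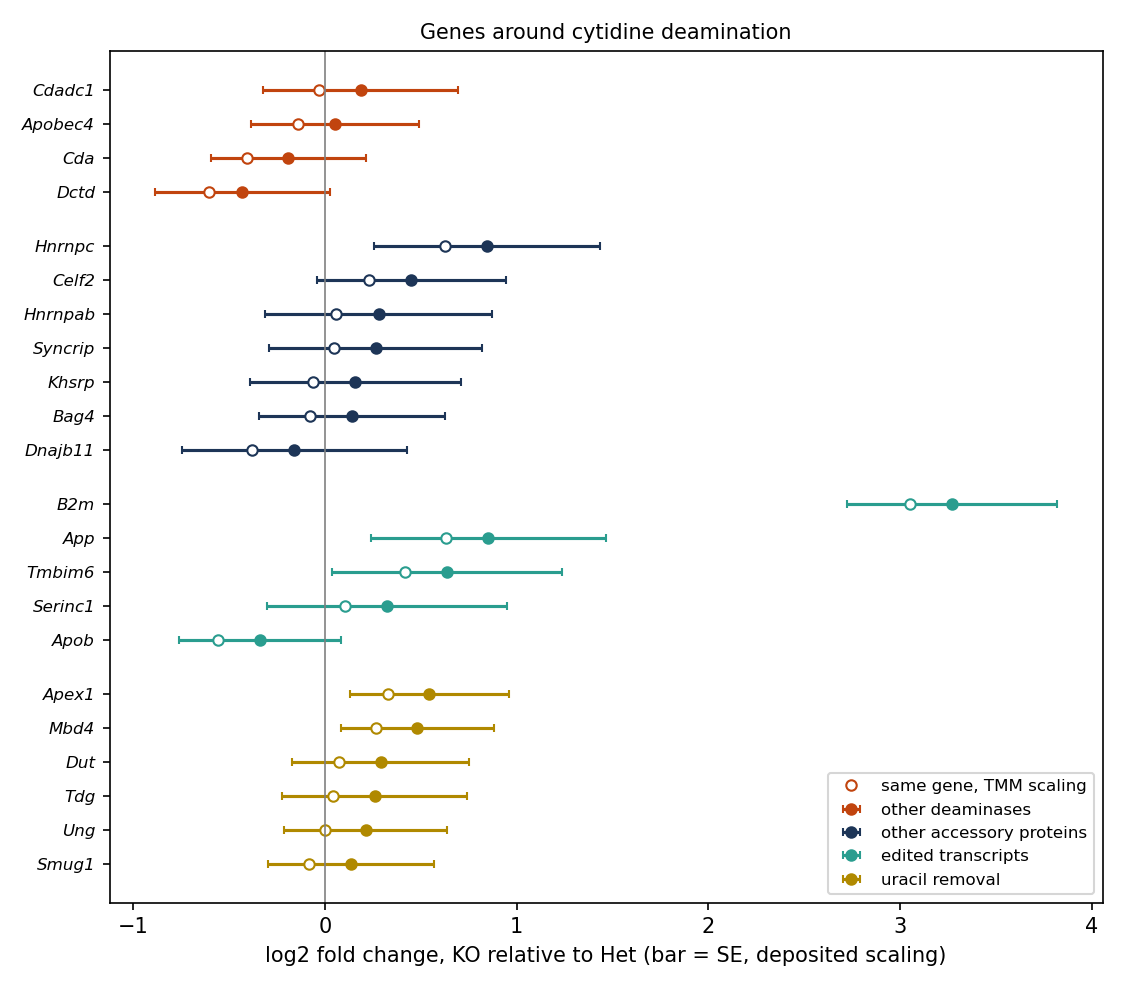
Log2 fold change of the tested genes of 4 lists, KO relative to Het, under the deposited scaling (filled, bar = SE) and TMM scaling (open). B2m, at 3.27, lies apart from the other genes, which range from −0.43 to 0.85 under the deposited scaling.

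Genes with the most similar pattern were named for each member by the root mean square difference of log2(value + 1) over the 8 libraries, each gene centred on its own mean, among 11063 other genes with a mean of at least 50. Closest to Apobec1 were Mtg1 (0.06), Stoml2 (0.06) and Prpf38a (0.07), against a median of 0.34 over all genes. Closest to Rbm47 were Sec24c (0.04), Med15 (0.05) and Nbas (0.05), against a median of 0.40. For Apobec3 they were Noa1 (0.07), Stimate (0.08) and Actr5 (0.09), against 0.35. A1cf had no neighbour as close: Gramd2 (0.22), Gm47483 (0.23) and St8sia1 (0.24) stood nearest, against a median of 0.55. For Apobec2, Rusc2 (0.11), Dcaf4 (0.17) and Vsig10l (0.18) were nearest among 11064 genes, against 0.54. The points share the level of their library, which most genes follow.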

How the data were processed

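RNA-seq of 8 libraries of sorted mouse beta cells was used. Per the labels' protocols, libraries were made from total RNA with Takara's stranded SMARTer pico kit (version 3). Per the submitters' processing notes, FastQC 0.11.8, UMI-tools, STAR 2.7.3a, HTSeq, DESeq2 1.28.1 and mm10 were used. Annotation, counting mode and strand setting are not given in the sources used here. What the authors deposited as signal are counts per gene scaled by a size factor for each library. All values (100%) were whole multiples of the smallest in their library (tolerance 0.001 of it), so whole reads could be recovered.

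Genotypes were compared with limma 3.58.1 in R 4.3.3, on log2(value + 1) for the 21498 genes averaging 10 or more, with trend and robust settings, two-sided, genotype as the only term and Benjamini-Hochberg adjusted p under 0.05. Under the deposited scaling limma shared 1 spread among genes of like level (128988 degrees of freedom; 17.3 with TMM). Fold changes understate those of low genes. Alternatives were other pseudocounts, filters, scalings, a replicate block, edgeR 4.0.16, DESeq2 1.42.0 and leaving out libraries. Coordinates and exon lengths are from GENCODE M21. The scripts were tested on simulated counts. Members and lists were chosen with earlier results of these data known. Named genes are Adar, the members, each list's called genes or otherwise its 2 with the smallest p, its most abundant, and the 3 nearest patterns. C1qa is the most abundant macrophage marker and Ins2 that of beta cells. Apob, Adgre1, Csf1r and C1qb were named after their values were seen. 1 gene of the deaminase list is not reported here.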

Additional observations from a re-analysis of the deposited data

Results flagged for a closer look

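In 4 of 80 sets of 4 values (the members and the genes of the lists, and the ratios, in each genotype), 1 library stood far from the other 3 by Dixon's criterion at 95%; chance alone flags about 1 set in 20. Apobec3 had 187 normalized counts in Het 4, against 285 to 286 in the other Het libraries. Apobec4 had 7.77 in KO 2, from 6 reads, while KO 1, KO 3 and KO 4 had 23.2 to 26.0. B2m had 7023 in KO 1, while KO 2, KO 3 and KO 4 had 1349 to 2226. The log2 ratio of Apobec2 to A1cf was −1.50 in Het 1, against −3.05 to −2.79 in the other Het libraries.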

How the results depend on the processing

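None of the 5 genes was called under the changed pseudocounts and filters, TMM scaling, TMM factors from genes averaging 200 or more, eBayes without trend, edgeR, DESeq2, the replicate block or on leaving out any 1 library. The filter at 50 left out Apobec2, that at 200 also A1cf, and DESeq2 gave Apobec2 no adjusted p. With libraries of both sexes only, Apobec1 (1.24), Apobec3 (0.95) and Rbm47 (0.85, sign reversed) were called, with 8538 genes higher and 2049 lower in all, and A1cf turned to 0.12. That setting with TMM scaling, chosen after seeing the data, called Apobec1 alone (0.60), gave Rbm47 0.21 and Apobec2 −0.033, and had 2904 genes higher and 4470 lower. Apobec2, within its error of 0, was −0.17 with TMM scaling, with or without the block, and −0.15 with edgeR, and Rbm47 was 0.17 with DESeq2; the cause was not tested.

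Without each library in turn the log2 fold change ran from 0.40 to 0.86 for Apobec1, −0.050 to 0.58 for Apobec3, −0.16 to 0.32 for Apobec2, −0.39 to 0.20 for A1cf and −0.47 to 0.30 for Rbm47. The log2 ratio difference ran from 0.50 to 0.91 for Apobec1 over Rbm47, −0.062 to 0.49 for Apobec2 over A1cf, −0.13 to 0.46 for Apobec2 over Rbm47 and −0.24 to 0.33 for A1cf over Rbm47. With 3 libraries against 4 the exact test cannot go below 0.0571, so it says nothing of stability. Ratios without the added 1, chosen after seeing the data, gave 0.75 for Apobec1 over Rbm47 with the same p (exact permutation p = 0.0286, adjusted p = 0.286), and groups did not overlap for that pair alone.

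Over all genes 198 were higher and 5 lower. With TMM scaling 8 were lower, with the filter at 200 and TMM factors together 404 of the 6697 genes left were higher and 284 lower, with eBayes lacking both settings 127 and 1, with edgeR 8 and with DESeq2 3 lower, and among genes averaging 50 or more 2 lower. Leaving out each library gave 105 (without KO 1) to 338 (without KO 3) higher and 1 (without Het 1) to 46 (without KO 3) lower. Same-numbered libraries did not deviate together throughout (correlations −0.28, 0.27, −0.55 and 0.63). Values of mixed sign cannot decide whether the numbers stand for pairs. The replicate block gave 182 higher and 5 lower. With TMM scaling, an added alternative, the block gave 307 and 96, beside 137 and 8 without it. The exact permutation of ratios within replicate numbers cannot go below p = 0.125. Depth limits Apobec2 and A1cf most.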
